A study of Aspergillus luchuensis with 6 samples.

Results

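Bidirectional promoters, in which a minus-strand start site and a plus-strand start site lie close together and fire away from each other at similar levels, were examined in the mycelium of Aspergillus luchuensis mut. kawachii, a white koji mould. The data came from CAGE (cap analysis of gene expression). This method maps where transcription began from tags read at the capped 5′ ends of RNA. A tag cluster is a run of nearby start positions on one strand, and its dominant position is the one with the most tags. The members were chosen by measured values. On scaffolds named DF, other than DF126582.1, neighbouring clusters with at least 5 CPM (counts per 1 M tags, over all libraries pooled) were taken when a minus cluster was followed by a plus cluster, their dominant positions lay 20 to 500 bp apart, no other such cluster lay between them, and their pooled levels were within 10-fold. This gave 799 pairs, and with them 1598 of the 10066 clusters that reached 5 CPM on those scaffolds.

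The study compared 3 libraries of a control strain (labelled ctrl345, genotype control) with 3 libraries of a strain in which laeA was deleted. LaeA is a putative methyltransferase that in Aspergillus species is needed for many secondary metabolite clusters. The deletion libraries carry the strain name sirD. The labels do not say whether the strains share a parent, so a difference between them may have a source other than laeA. All cultures were shaken at 30 °C for 36 h in one medium and for a further 12 h in another. The labels do not say that libraries of a group came from separate cultures, so the p-values measure the spread between these libraries, which may be technical.

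Fungal genomes are compact, and many neighbouring genes are arranged head to head, so that one intergenic region holds both promoters. The nitrate assimilation genes niiA and niaD and the penicillin genes acvA and ipnA of Aspergillus nidulans are textbook cases of such shared regions. A pair of core promoters in one nucleosome-depleted region may use the same upstream sites or may be regulated apart, and divergent starts can also give rise to short noncoding RNAs. The table of start positions names no genes, and the gene table at hand belongs to another assembly, so which genes or noncoding RNAs the starts below belong to was not analysed here, nor was laeA itself or any marker of the mycelium.

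Library totals were 14.8 to 19.3 M tags, and the clusters of divergent pairs held 6.21%, 6.50% and 6.32% of them in control libraries 1, 2 and 3 and 6.96%, 7.05% and 5.91% in disruptant libraries 1, 2 and 3. The groups overlapped in this share. A floor of 3 tags per library corresponds to 0.153 to 0.207 CPM of the normalised libraries and covers counting error only. The tag-rich scaffold DF126582.1, left out by the rule, took 7.49% to 17.3% of the tags of a library (11.2%, 9.42% and 17.2% in the controls, 7.49%, 14.9% and 17.3% in the disruptants).

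The spacing of the divergent starts was concentrated in a narrow range. The distance between dominant positions had a median of 186 bp and quartiles of 147 and 266.5 bp. There were 23 pairs at 100 to 119 bp and 101 pairs at 120 to 139 bp, so the distribution rose within 20 bp. Of the 799 pairs, 399 (49.9%) lay 125 to 199 bp apart, and only 24 (3.00%) lay closer than 100 bp. Neighbours of other orientations, taken by the same limits of level and distance, were less concentrated. Positions up to 20 bp apart were joined on the same strand only, so this step acts on same-strand neighbours alone. Of 1904 same-strand neighbours, 453 (23.8%) lay 125 to 199 bp apart and 326 (17.1%) under 100 bp. Of 81 convergent neighbours, which face each other, 20 (24.7%) and 22 (27.2%) did. These shares are a description, and the bounds of 125 and 199 bp were chosen after the distribution was seen. The minus-strand positions may be offset by 1 bp against plus-strand ones, since the convention of the table is not stated.

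**Figure D1:**
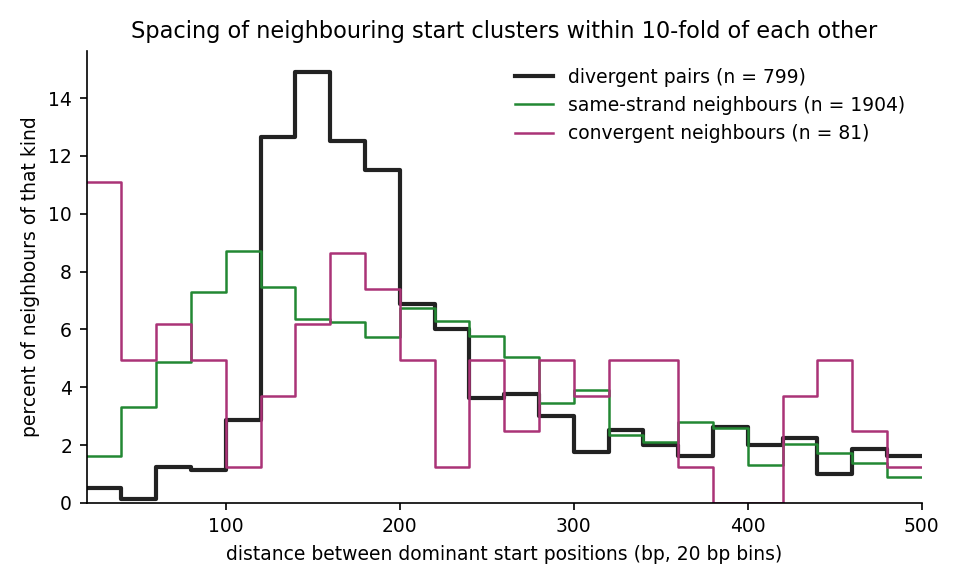
Distance between the dominant start positions of neighbouring clusters (horizontal axis, bp, 20 bp bins) against the percent of neighbours of each orientation (vertical axis), for clusters within 10-fold of each other. Divergent pairs (black, n = 799) rose from 2.88% at 100 to 119 bp to 12.6% at 120 to 139 bp, while same-strand (green, n = 1904) and convergent neighbours (magenta, n = 81) spread more evenly.

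Between the starts lay a stretch with few tags. In 793 pairs the clusters left a gap, with a median of 116 bp (quartiles 94 and 180 bp), and in the other 6 pairs the clusters overlapped on opposite strands. Tags of either strand within the gap came to a median of 0.887% of the tags of the pair (quartiles 0.375% and 1.98%). The stretches of the same length directly downstream of the clusters, on the strand of each, together held a median of 2.99% (quartiles 1.61% and 7.17%), and the gap held fewer tags than these in 708 of the 793 pairs. Part of this follows from the rule, which allowed no other kept cluster between the starts and set no such limit downstream. In 51 pairs the gap held more than 10% of the pair's tags. Averaged over pairs, minus-strand tags were densest 75 bp to the left of the midpoint (5.27% of the window per 10 bp) and plus-strand tags 75 bp to the right (5.44%). The central 100 bp held 4.58% of the window. The windows were centred between the dominant starts of each pair. This sets the side of each peak, and the low centre follows from it in part.

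**Figure D2:**
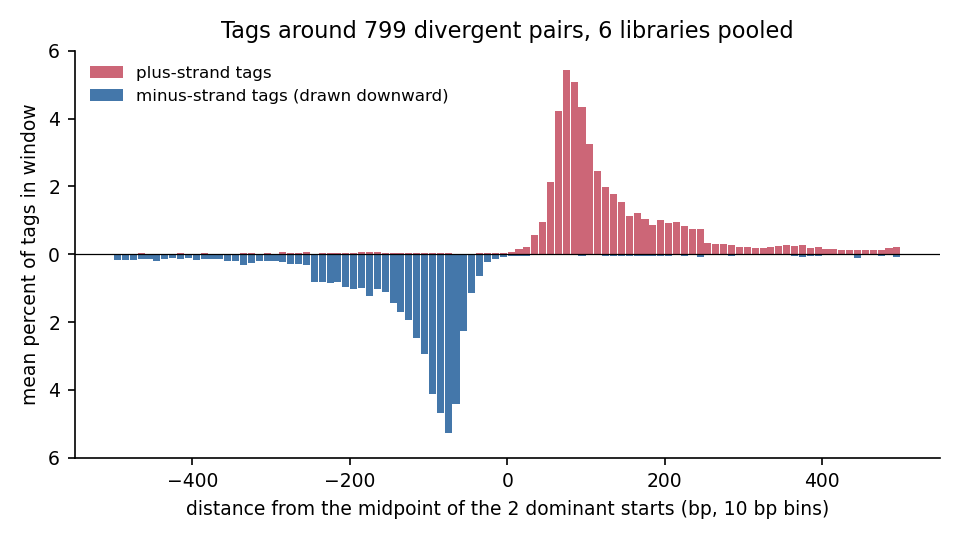
Mean percent of the tags in a window of 500 bp on either side (vertical axis, minus-strand tags drawn downward) by distance from the midpoint between the dominant starts (horizontal axis, bp, 10 bp bins), over 799 pairs with the 6 libraries pooled. Each strand shows 1 hump, with its peak 75 bp from the midpoint, and few tags in the centre. Centring on each pair's own starts sets the side of each hump.

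The shape of the clusters was like that of other kept clusters. Member clusters had a median width of 76 bp (quartiles 54 and 100 bp), and the 8467 other clusters of at least 5 CPM that entered the test below had the same median of 76 bp (quartiles 48 and 116 bp). The dominant position held a median of 21.1% of a member's tags and 22.4% of the tags of the others. The median pooled level was 21.0 CPM in members and 16.8 CPM in the others. The dominant position on the minus side was the same in all 6 libraries in 382 pairs, and that on the plus side in 410 pairs. The distance between dominant positions ranged over a median of 10 bp across libraries (upper quartile 25 bp). Its median over pairs was 188, 185 and 185 bp in control libraries 1, 2 and 3 and 186, 187 and 185 bp in disruptant libraries 1, 2 and 3, so the groups overlapped.

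Neither strand was favoured. The minus side was the stronger in 392 pairs and the plus side in 407. The pooled levels of the sides differed by a median of 2.20-fold (quartiles 1.45 and 3.96), and 361 pairs were within 2-fold. The limit of 10-fold was closely approached from both sides. A pair on DF126449.1 with dominant starts at 1422919 and 1423356 had 254 CPM on the minus and 25.5 CPM on the plus side, a 9.96-fold difference that kept it in. A pair on DF126459.1 at 24220 and 24346 had 7.21 and 72.2 CPM, a 10.02-fold difference that left it out. The stronger side was the same in all 6 libraries in 631 pairs. In the other 168 pairs, whose sides differed by a median of 1.16-fold, it changed between libraries.

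The 6 strongest pairs, ranked by summed level, show the range of balance. The strongest was on DF126454.1, 435 bp apart at 11915 and 12350. Its minus side had 1305, 1387 and 878 CPM in the controls and 1225, 939 and 1048 CPM in the disruptants. Its plus side had 2663, 1962 and 2031 CPM in the controls and 2395, 2353 and 2316 CPM in the disruptants. The groups overlapped on both sides. The second pair, on the same scaffold 165 bp apart at 517635 and 517800, was more unequal, with 896 ± 124 CPM on the minus and 123 ± 24.6 CPM on the plus side in the controls and 923 ± 147 and 95.5 ± 8.45 CPM in the disruptants (SD, n = 3). The third, on DF126451.1 188 bp apart at 284087 and 284275, had 470 ± 105 and 301 ± 82.2 CPM in the controls and 445 ± 95.4 and 297 ± 67.7 CPM in the disruptants (SD, n = 3). On DF126468.1, a pair 252 bp apart at 337607 and 337859 had 675 ± 192 and 63.4 ± 11.2 CPM in the controls and 644 ± 117 and 76.1 ± 12.6 CPM in the disruptants (SD, n = 3). A pair on DF126490.1, 325 bp apart at 150225 and 150550, had 63.4 ± 8.04 and 651 ± 122 CPM in the controls and 92.3 ± 17.2 and 580 ± 51.1 CPM in the disruptants (SD, n = 3). None of these 5 pairs was called on either side (edgeR quasi-likelihood test with Benjamini-Hochberg adjustment, lowest adjusted p = 0.142), with log2 fold changes between -0.36 and 0.54. The remaining pair of the 6, on DF126461.1, nearly vanished in the disruptant and is described below.

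Of the 1598 member clusters, all of which passed the filter on low counts, 62 (3.88%) were called higher or lower in the disruptant (adjusted p under 0.05 in the quasi-likelihood test of edgeR). Of all 21803 clusters tested, 8.11% were called, and of the 8467 clusters of at least 5 CPM outside the pairs, 9.33%. When the level range of the members was divided at its quartiles, 5.75%, 3.26%, 2.76% and 3.75% of members were called from the lowest to the highest of the 4 classes, and at least 8.29% of the other clusters in each. The share was lower in members than over all clusters in each of the 14 fits compared, at 1.88% to 5.57% against 3.41% to 12.2%. No test of this difference was made. It did not hold for the widely spaced pairs described below, of whose clusters 10.4% were called, against 2.33% in closer pairs. In counts simulated for 21803 clusters, of which 200 were changed, the test found 0% of log2 changes of size 1, so 2-fold changes could pass unseen. The data had more calls (1768), which makes the adjustment of p less strict. Of the 62 called members, 49 had a log2 change of at least 1 in size and the others less. The simulated 0% is thus not the share found in these data. Of the 62 calls, 41 were higher in the disruptant, where the background is 4.1% of clusters, and 21 lower, where it is 4%. The libraries of the groups did not overlap in 315 members (19.7%) against 29.3% of all clusters.

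The estimated changes were small as well. The median absolute log2 fold change was 0.20 in members, 0.31 in the other clusters of at least 5 CPM and 0.40 over all clusters tested. The spread between replicates was also smaller in members, with a median standard deviation within groups of 0.25 on the log2 CPM scale against 0.30 in the other clusters of at least 5 CPM. The median signed change was 0.10 in members and -0.01 over all clusters, which with library size alone as the scaling became 0.17 and 0.06. The count of 62 depended on single libraries. It was 34 without control replicate 1, 30 without control replicate 2, 37 without disruptant replicate 2 and 30 without disruptant replicate 3, and 27 of the 62 were called in all 6 fits that left out a library.

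Of the 799 pairs, 751 had no called side, 34 had 1 and 14 had both. In all 14 both sides had the same direction, 9 higher and 5 lower in the disruptant, and 0 pairs were called in opposite directions by edgeR or by DESeq2. In 10 of the 14 (5 higher and 5 lower) at least 1 side had a mean under 5 CPM in one group, so that it met the minimum of the rule through the other group, and such pairs had to differ. The shared direction is therefore given as a description. In the other 4 pairs each side had at least 5 CPM in both groups. They lay on DF126488.1 (350 bp), DF126462.1 (321 bp), DF126447.1 (114 bp) and DF126484.1 (99 bp). The 114 bp pair rose from 15.1 to 34.8 CPM on the minus and from 7.26 to 18.4 CPM on the plus side. The 99 bp pair rose from 11.3 to 24.7 and from 42.6 to 182 CPM (means, n = 3). Both were named after their values were seen. The minus calls of the 321, 114 and 99 bp pairs held in only 2 of the 6 fits without a library. At an unadjusted p under 0.05 on both sides, 32 pairs had the same and 1 had opposite directions (edgeR quasi-likelihood). The 32 include the 14 pairs above, of which 10 had to differ. No such count is given for other neighbours. Same-strand neighbours within 10-fold were called together in 1 direction in 3.78% of cases (72 of 1904), against these 14 of 799 pairs. Of 81 convergent neighbours, 3 were called on both sides, all in the same direction. The count of 14 was 8 without control replicate 1, 7 without control replicate 2, 9 without disruptant replicate 2 and 6 without disruptant replicate 3, and 6 of the 14 pairs kept both calls in all 6 such fits. Of these 6, only the 350 bp pair on DF126488.1 had at least 5 CPM on each side in both groups.

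Across pairs, the log2 fold changes of the sides had Pearson's r = 0.83 and Spearman's rho = 0.29 (n = 799 pairs). The high r rested on the 14 pairs called on both sides, and without them r was 0.30 (n = 785). Same-strand neighbours had r = 0.71 and rho = 0.62 (n = 1904), and r = 0.58 without those called on both sides. Whether such neighbours were parts of 1 promoter was not tested. Convergent neighbours had r = 0.17 and rho = 0.13 (n = 81). The direction was the same on both sides in 59.7% of divergent pairs and 71.6% of same-strand neighbours. It was the same in 61.7% of convergent neighbours and in 60.3% of head-to-head neighbours beyond the 10-fold limit, so the share in the pairs was not higher than in these. Both sides were read from the same libraries, so these coefficients share the depth and scaling of each library and are given as a description. The deviations of libraries from their group mean, which do not involve the genotype, correlated between the sides of divergent pairs at a median of 0.17 over the 6 libraries (0.11 to 0.25). The median was 0.48 in same-strand neighbours (0.34 to 0.58) and 0.08 in convergent neighbours (-0.27 to 0.14).

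**Figure D3:**
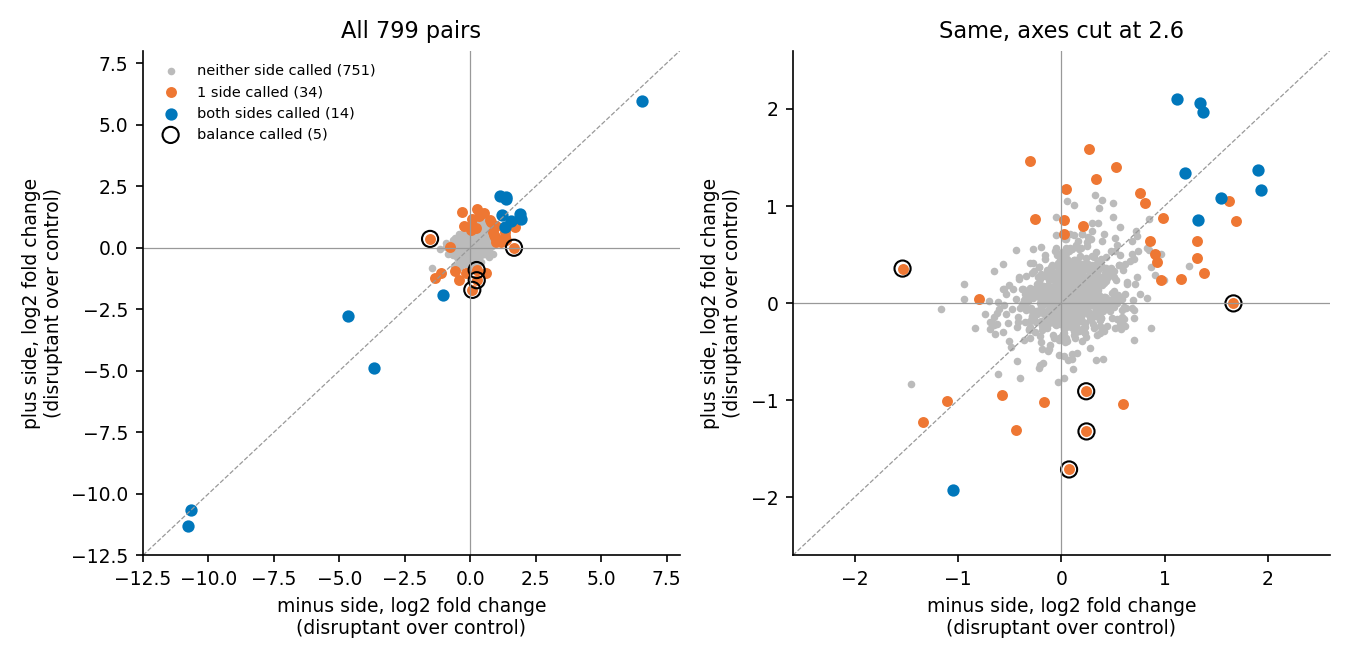
Log2 fold change of disruptant over control on the minus side (horizontal axis) and the plus side (vertical axis) of each of 799 pairs, in full at left and with the axes limited to 2.6 at right, with the diagonal dashed. The 14 pairs called on both sides (blue) lie in the quadrants of equal sign, orange marks the 34 called on 1 side, and rings mark the 5 pairs with a called change of balance.

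The deepest losses among the pairs were 2 on scaffold DF126461.1. In the first, 329 bp apart at 696917 and 697246, the minus side had 187, 375 and 442 CPM in the controls and 0.209, 0.132 and 0.207 CPM in the disruptants. The plus side had 611, 1483 and 879 CPM in the controls and 0.469, 0.329 and 0.344 CPM in the disruptants. Each control library exceeded each disruptant library more than 100-fold. The fall was 1835-fold on the minus side (log2 fold change -10.77, SE 0.50) and 2601-fold on the plus side (-11.30, SE 0.50), both with edgeR adjusted p = 3.23e-05. The second pair lay nearby, 289 bp apart at 706884 and 707173. Its minus side went from 207 ± 71.5 to 0.109 ± 0.136 CPM and its plus side from 766 ± 332 to 0.465 ± 0.394 CPM (SD, n = 3), with log2 fold changes of -10.66 (SE 0.60, edgeR adjusted p = 5.9e-05) and -10.65 (SE 0.70, edgeR adjusted p = 0.000135). The disruptant values rest on 0 to 13 tags per library and side, so the sizes of these ratios are imprecise. Both sides of each pair met the minimum of 5 CPM through the controls alone. A fall was thus built into their choice and is given as a description.

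Scaffold DF126450.1 also held 2 pairs that fell on both sides, and in both the estimated fall was larger on the side that was stronger in the controls. In the pair 450 bp apart at 674966 and 675416, the plus side had 36.1, 68.9 and 50.8 CPM in the controls and 1.88, 1.65 and 1.72 CPM in the disruptants, a 29.7-fold fall (log2 fold change -4.88 with SE 0.30, edgeR adjusted p = 9.88e-05). Its minus side fell 13.0-fold, from 11.2 ± 3.67 to 0.863 ± 0.156 CPM (SD, n = 3; edgeR adjusted p = 0.000642). In the pair 488 bp apart at 682493 and 682981, the minus side had 25.8, 32.5 and 40.9 CPM in the controls and 2.03, 0.790 and 0.964 CPM in the disruptants, a 26.2-fold fall (log2 fold change -4.67 with SE 0.38, edgeR adjusted p = 0.000381). Its plus side fell 6.80-fold, from 12.7 ± 2.00 to 1.86 ± 0.245 CPM (SD, n = 3; edgeR adjusted p = 0.000631). The groups did not overlap on any of these 4 sides. All 4 met the minimum of 5 CPM through the controls alone, so their fall is given as a description. The change of balance did not pass the threshold in either pair (-1.21, SE 0.24, edgeR adjusted p = 0.0785, and 1.93, SE 0.40, edgeR adjusted p = 0.0879).

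The largest rise on both sides was a pair on DF126449.1, 399 bp apart at 403918 and 404317. The minus side had 0.949, 1.73 and 1.32 CPM in the controls and 80.1, 206 and 90.0 CPM in the disruptants, a 94.0-fold rise (log2 fold change 6.54 with SE 0.48, edgeR adjusted p = 0.000242). The plus side had 1.63, 3.00 and 2.16 CPM in the controls and 134, 162 and 130 CPM in the disruptants, a 62.6-fold rise (5.96, SE 0.29, edgeR adjusted p = 3.23e-05). Both sides were low in every control library (18 to 59 tags) and strong in every disruptant library. The pair passed the level minimum of 5 CPM through the disruptant libraries alone. Its balance did not differ beyond the spread (-0.45, SE 0.34, edgeR adjusted p = 0.619).

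A further 3 pairs that rose on both sides rose less. A pair on DF126488.1, 350 bp apart at 118001 and 118351, had 14.9, 22.1 and 23.2 CPM on the minus side in the controls and 55.5, 104 and 66.6 CPM in the disruptants, with a log2 fold change of 1.91 (SE 0.29, edgeR adjusted p = 0.00514). Its plus side rose 2.59-fold, from 19.5 ± 4.72 to 50.6 ± 2.04 CPM (SD, n = 3; edgeR adjusted p = 0.00633). A pair on DF126462.1, 321 bp apart at 628286 and 628607, rose 4.17-fold on the plus side, from 7.40 ± 0.137 to 30.8 ± 0.911 CPM (SD, n = 3; edgeR adjusted p = 0.00051). Its minus side rose 2.54-fold, from 6.46 ± 2.46 to 16.4 ± 4.65 CPM (SD, n = 3; edgeR adjusted p = 0.0367), a call that was lost in 4 of the 6 fits without a library: without control replicates 1 and 2 and without disruptant replicates 2 and 3 (edgeR adjusted p up to 0.135). On DF126468.1, a pair 83 bp apart at 135994 and 136077 went from 2.86 ± 0.620 to 7.42 ± 0.272 CPM on the minus and from 7.91 ± 1.07 to 30.9 ± 6.33 CPM on the plus side (SD, n = 3; edgeR adjusted p = 0.0141 and 0.00152). The minus side was not called without disruptant replicate 3 (edgeR adjusted p = 0.0592). That side met the minimum of 5 CPM through the disruptants, so its rise is given as a description. Directly to the left of the 83 bp pair lay another pair called on both sides, 45 bp apart at 135915 and 135960, in which the clusters overlapped on opposite strands. That pair rose from 3.38 ± 0.965 to 13.0 ± 2.44 CPM on the minus and from 5.08 ± 0.451 to 11.4 ± 2.43 CPM on the plus side (SD, n = 3; edgeR adjusted p = 0.00468 and 0.0223), the plus call being lost without control replicate 1 or 2 or disruptant replicate 2 or 3. It was named after its values were seen, and its minus side met the minimum of 5 CPM through the disruptants.

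**Figure D4:**
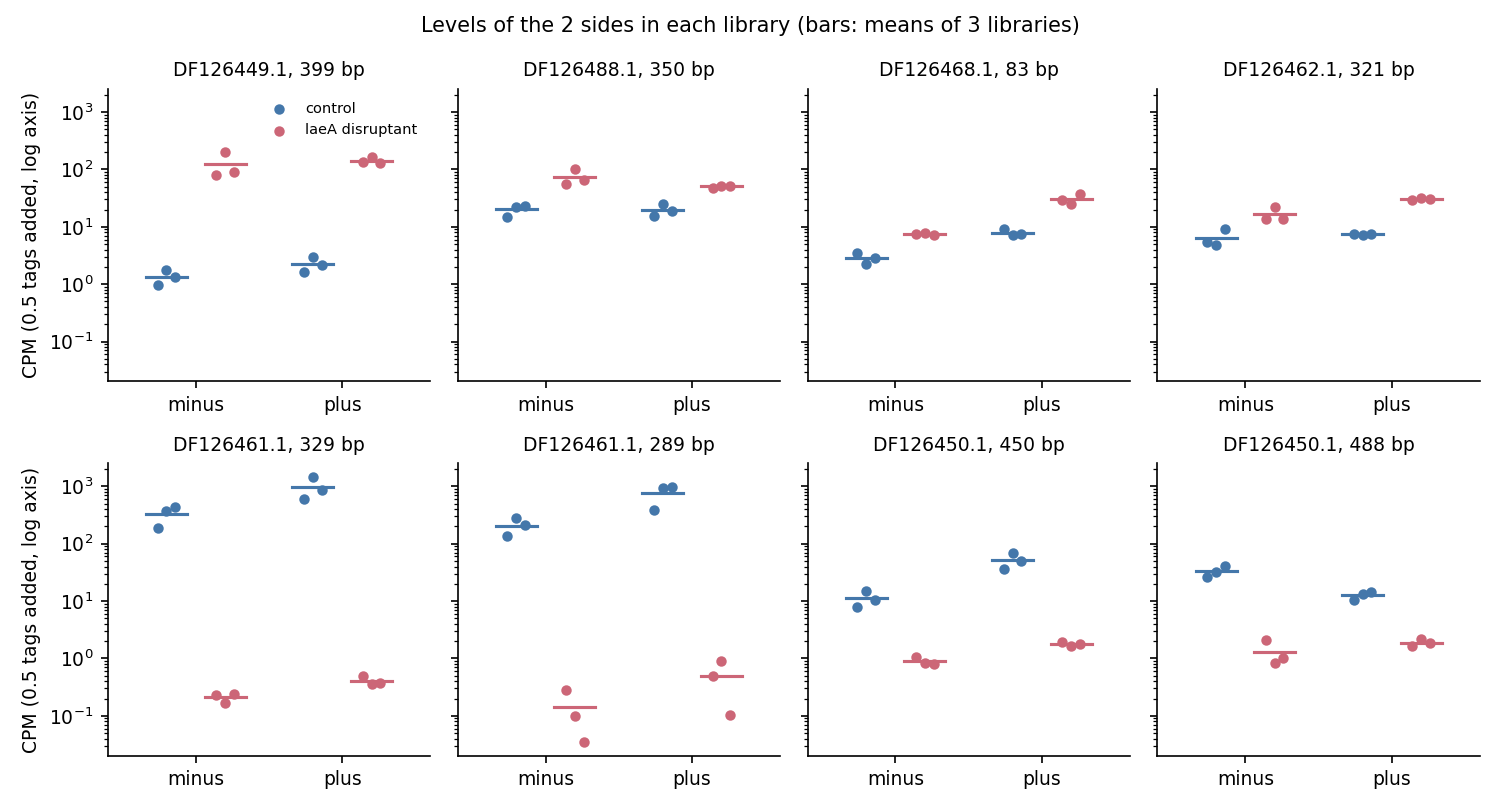
Level of each side (CPM with 0.5 tags added, log axis) in the 3 control (blue) and 3 disruptant libraries (red) of the 8 pairs named for a rise (top) or fall (bottom) on both sides, with bars for means. In every panel the points of the groups are apart on both sides, from under 1 CPM against over 100 CPM on DF126461.1 to 6.46 against 16.4 CPM on the minus side of the 321 bp pair.

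Calls were more frequent among widely spaced pairs. Of 154 pairs 300 to 500 bp apart, 25 (16.2%) had at least 1 called side, against 23 of 645 pairs (3.57%) 20 to 299 bp apart. By cluster, 10.4% of 308 and 2.33% of 1290 were called, beside the background of 8.11%. All 5 called changes of balance described below were in the wide group. Without the scaffolds DF126461.1, DF126449.1 and DF126450.1, 17 of 129 wide pairs and 20 of 572 closer pairs had a called side. The lowest share was 2.48%, in the 242 pairs 150 to 199 bp apart. The summed level had a median of 54.4 CPM in the wide and 47.4 CPM in the closer pairs. Same-strand neighbours differed less by distance, with 17.7% of 401 wide and 12.4% of 1503 closer neighbours having a called cluster, and convergent neighbours had 36.4% of 22 and 22.0% of 59. The bins were chosen after seeing the data and no test of the difference was made. The counts were 12 to 20 wide and 10 to 29 closer pairs across the fits that left out a library, with 14 and 12 without control replicate 1, 13 and 10 without control replicate 2, 20 and 29 without control replicate 3, 16 and 15 without disruptant replicate 1, 15 and 13 without disruptant replicate 2 and 12 and 12 without disruptant replicate 3. With library size alone they were 22 and 27, and with DESeq2 31 and 38.

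In 34 of the 799 pairs a single side was called, 23 higher and 11 lower in the disruptant, 15 on the minus and 19 on the plus strand. A single cluster was called in 185 of 1904 same-strand and 18 of 81 convergent neighbours within 10-fold. In the divergent pairs the called side was the weaker in 22 and the stronger in 12, a split that was not compared with other neighbours. The called side had a median absolute log2 fold change of 1.15 and the other side 0.35. The other side had the same sign in 25 pairs and the opposite sign in 9, and 12 of the 34 other sides had an unadjusted p under 0.05 (edgeR quasi-likelihood). A missed call on the other side does not show that it did not change, so the balance of the strands was tested directly.

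The balance of the strands, as the difference between the log2 fold changes of the plus and the minus side within libraries, differed between genotypes in 5 of the 799 pairs (edgeR quasi-likelihood test of the interaction of side and genotype, Benjamini-Hochberg adjusted p under 0.05 over 935 head-to-head neighbours of any ratio, of which 8, or 0.856%, were called). Of the 799 pairs, 90 had an unadjusted p under 0.05. The median absolute change of balance was 0.24 on the log2 scale. In counts simulated for 935 pairs, of which 200 were changed, this test found 62% of the log2 changes when their size was 1 and 100% when it was 2. Far fewer pairs were called in the data (8), which makes the adjustment of p stricter, so the shares found here may be lower.

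The largest change was in a pair on DF126498.1, 430 bp apart at 93709 and 94139, whose stronger side changed. The minus side had 54.7, 67.4 and 72.7 CPM in the controls and 15.9, 29.6 and 21.8 CPM in the disruptants (log2 fold change -1.54 with SE 0.26, edgeR adjusted p = 0.00809, and 0.0539 without disruptant replicate 3). The plus side had 44.2, 35.4 and 43.5 CPM in the controls and 59.5, 61.6 and 36.4 CPM in the disruptants (0.36, SE 0.24, edgeR adjusted p = 0.393). The minus side was the higher in each control and the plus side in each disruptant library, a change of balance of 1.89 (SE 0.33, edgeR adjusted p = 0.0492).

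A pair on DF126452.1, 478 bp apart at 623653 and 624131, became nearly even. Its minus side had 45.1, 40.0 and 40.7 CPM in the controls and 134, 136 and 130 CPM in the disruptants, a 3.18-fold rise (log2 fold change 1.67 with SE 0.17, edgeR adjusted p = 0.000796). The plus side had 181, 146 and 127 CPM in the controls and 181, 96.4 and 175 CPM in the disruptants, with overlapping groups and a log2 fold change of -0.00 (SE 0.27, edgeR adjusted p = 0.995). The change of balance was -1.71 (SE 0.29, edgeR adjusted p = 0.0445).

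In the other 3 pairs the plus side was called lower in the disruptant and the minus side was not called. On DF126455.1, 310 bp apart at 820851 and 821161, the plus side had 9.75, 8.45 and 3.71 CPM in the controls and 3.18, 1.65 and 1.79 CPM in the disruptants beside 38.4 ± 11.1 and 40.5 ± 14.1 CPM on the minus side (SD, n = 3), a change of balance of -1.74 (SE 0.27, edgeR adjusted p = 0.0442). That plus side had a pooled level of 5.05 CPM and a disruptant mean of 2.21 CPM, so it met the minimum of 5 CPM through the controls. In the disruptants alone the sides were also more than 10-fold apart (mean log2 ratio of plus to minus tags -4.18, against -2.46 in the controls). Its changes are therefore given as a description. The pair on DF126449.1 at the 10-fold limit, 437 bp apart, had 36.1 ± 15.8 and 14.4 ± 3.27 CPM on its plus side and 238 ± 74.2 and 282 ± 87.7 CPM on its minus side in controls and disruptants (SD, n = 3), a change of -1.49 (SE 0.23, edgeR adjusted p = 0.0442). Its mean log2 ratio of plus to minus tags was -2.77 in the controls and -4.26 in the disruptants. It thus met the 10-fold limit through the controls, and its change is given as a description. On DF126448.1, 305 bp apart at 1617643 and 1617948, the plus side went from 14.5 ± 0.974 to 7.71 ± 0.685 CPM, while the minus side had 18.2 ± 0.355 and 21.6 ± 0.642 CPM (SD, n = 3). Its change of balance was -1.15 (SE 0.19, edgeR adjusted p = 0.0442), and it was named after its values were seen. The level calls of these plus sides (edgeR adjusted p = 0.0412, 0.0497 and 0.0274) were lost in 4, 5 and 4 of the 6 fits without a library. Those of DF126455.1 were lost without control replicate 1 or 2 or disruptant replicate 2 or 3, those of DF126449.1 in every such fit but that without control replicate 2, and those of DF126448.1 without control replicate 1 or 2 or disruptant replicate 1 or 3. With library size alone as the scaling, the calls of DF126455.1 and DF126449.1 were also lost (edgeR adjusted p = 0.0657 and 0.0603).

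These 5 calls were close to the threshold. There were 0 without control replicate 1, control replicate 2, disruptant replicate 2 or disruptant replicate 3 (47, 60, 67 and 67 pairs at an unadjusted p under 0.05, edgeR), 2 without disruptant replicate 1 and 4 without control replicate 3. Those counts are over all 799 pairs: of the 5 pairs above, 3 were called in 1 such fit each, and the pairs on DF126498.1 and DF126448.1 in 0. With a limma test of the log2 ratio 6 pairs were called, including these 5. The direction stayed, and the size of the change over the fits without a library was 1.56 to 2.14 for the DF126498.1 pair, 1.40 to 1.87 for the DF126452.1 pair and 1.11 to 1.21 for the DF126448.1 pair.

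**Figure D5:**
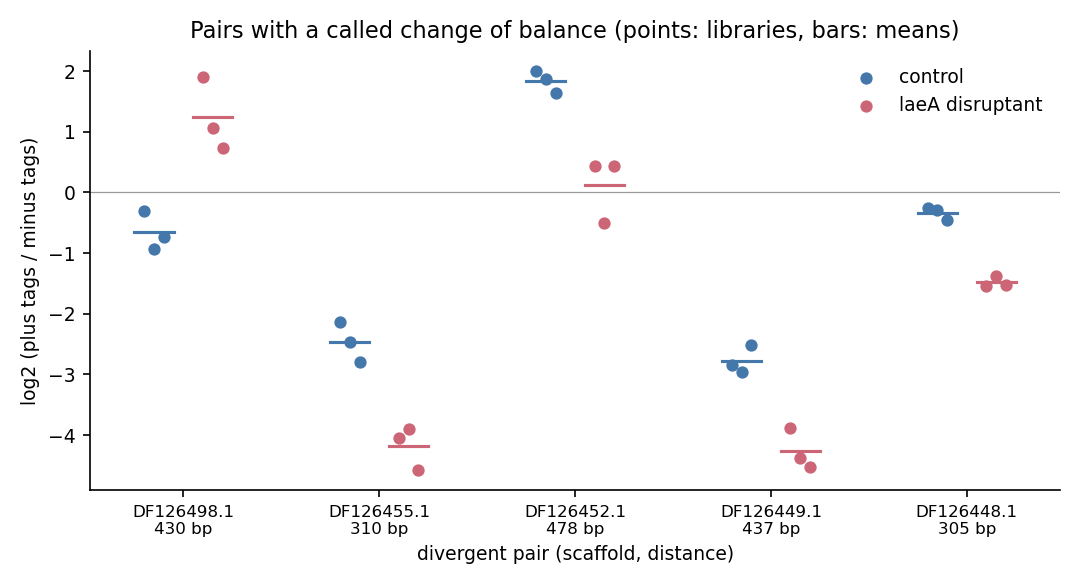
Log2 ratio of plus-strand to minus-strand tags (vertical axis, 0.5 tags added to each) in the control (blue) and disruptant libraries (red) of the 5 pairs with a called change of balance, with bars for the means of 3 libraries. The groups are apart in each pair, and the DF126498.1 pair crosses 0, where the strands are even.

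The extremes of spacing showed no called change. The closest pair lay 20 bp apart at 404134 and 404154 on DF126463.1, with clusters that overlapped on opposite strands. In disruptant library 1 this pair had its dominant positions in reverse order (distance -2 bp). Its sides had 11.9 ± 0.454 and 10.9 ± 3.76 CPM in the controls and 11.4 ± 1.62 and 12.9 ± 5.20 CPM in the disruptants (SD, n = 3; edgeR adjusted p = 0.889 and 0.699). The widest lay 499 bp apart at 1198698 and 1199197 on DF126449.1, with 8.87 ± 2.80 and 7.81 ± 1.88 CPM in the controls and 11.8 ± 2.62 and 12.8 ± 3.80 CPM in the disruptants (SD, n = 3; edgeR adjusted p = 0.413 and 0.181).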

How the data were processed

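CAGE tags were measured in 6 mycelial libraries. The deposited table holds tag counts that the authors had not normalised, for 8582186 positions on both strands. FastQC, BWA and bedtools are named in the submitters' processing notes, without roles or versions. The genome build and the treatment of tags mapping to several places are not given in the sources used here, so tags from repeated sequence may be misplaced. Positions are counted from 1. No genome sequence was used. Groups and replicate numbers came from the titles.

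Positions with a pooled level of at least 0.1 CPM were joined up to 20 bp apart, and all tags of that strand within the span were counted. The 21824 clusters of at least 1 CPM (94.2% of tags) were tested with edgeR 4.0.16 in R 4.3.3 on raw counts (TMM, filterByExpr, quasi-likelihood F test, Benjamini-Hochberg over 21803 clusters). CPM values use library totals times TMM factors, and each standard error is the estimate over the square root of F. The balance test had 12 columns (6 libraries by 2 strands) with terms for library, side, and side by genotype. limma 3.58.1 and DESeq2 1.42.0 served as alternatives. Same-numbered libraries deviated from their group means with correlations of 0.45, -0.41 and -0.07. Without a comparison to libraries of unlike numbers, these values do not show whether the numbers pair the libraries. The labels do not say that a replicate number marks a shared batch, so the main fits had no block. A block for replicate number served as an alternative.

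In counts simulated for 21803 clusters, of which 200 were changed, the level test found 0% of log2 changes of size 1, 74.5% of size 2 and 99% of size 3. The data had 1768 calls, so these shares may be too low for them. The members, lists and tests were chosen with earlier results of these data known. Pairs were named by rule: the 6 with the highest summed level, the 4 rises and 4 falls on both sides with the largest smaller change, the 4 largest called changes of balance, the closest, the widest and those nearest the 10-fold limit.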

Additional observations from a re-analysis of the deposited data

How the results depend on the processing

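The 62 called clusters became 32 and the 14 pairs called on both sides became 8 with the replicate block, and 28 and 6 at an adjusted p under 0.01. They ranged from 30 to 64 and from 6 to 15 without 1 library. The 5 changes of balance became 0 with the replicate block (59 pairs at an unadjusted p under 0.05, edgeR), 0 at an adjusted p under 0.01 (90 at an unadjusted p under 0.05) and 0 to 4 without 1 library. No count of opposite calls rose above 0 in these fits. The correlation of the sides was 0.77 to 0.85 without 1 library. The distance counts, 25 wide and 23 closer pairs, were 13 and 11 with the block, 31 and 38 with DESeq2, 22 and 27 with library size alone, and 12 to 20 and 10 to 29 without 1 library. The rule gave 523 pairs with clusters of at least 10 CPM and 517 with levels within 3-fold. The cause was not tested. The block changed no named call of the 8 pairs in the plot of levels other than that of the minus side of the 321 bp pair on DF126462.1 (edgeR adjusted p = 0.0823). Of the other pairs with values given here, it ended the plus call of the 437 bp pair on DF126449.1 (edgeR adjusted p = 0.138). It also ended those of the 305 bp pair on DF126448.1 and the 45 bp pair on DF126468.1 (edgeR adjusted p = 0.0863 and 0.0741). The minus calls of the 73 bp pair on DF126492.1 and the 114 bp pair on DF126447.1 were lost as well (edgeR adjusted p = 0.0693 and 0.0777). Of 468 recomputed values of 26 pairs, 410 kept their side of the threshold, 58 lost the call and 0 reversed a called direction. These pairs include some called on both sides but not described here, 479 bp apart on DF126449.1 and 284 bp apart on DF126456.1. Other settings stayed within 1.5 times the counts above. Depth limits the silent sides, where disruptant libraries held 0 to 13 tags.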

Other observations

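Beyond the 10-fold limit lay 136 further head-to-head neighbours, whose pooled levels were unequal, and 3 of them had a called change of balance. On DF126486.1, 430 bp apart at 90498 and 90928, the minus side had 326, 506 and 384 CPM in the controls and 14.3, 12.4 and 13.4 CPM in the disruptants, while the plus side had 8.91, 14.6 and 10.4 CPM in the controls and 7.93, 9.55 and 7.44 CPM in the disruptants. The strong side fell by 4.92 on the log2 scale (SE 0.25, edgeR adjusted p = 3.53e-05) and the weak side had a log2 fold change of -0.44 (SE 0.25, edgeR adjusted p = 0.317), a change of balance of 4.48 (SE 0.21, edgeR adjusted p = 2.23e-05). In each disruptant library the sides were within 10-fold, so this pair lay beyond the limit through the controls. Its change of balance is given as a description. On DF126463.1, 285 bp apart at 681719 and 682004, both sides rose, with log2 fold changes of 4.64 (SE 0.36) on the strong minus side and 2.35 (SE 0.27) on the plus side (edgeR adjusted p = 0.000323 and 0.00149). That plus side had under 5 CPM in each control, so it met the minimum through the disruptants. The sides of that pair were within 10-fold in each control, so it passed the 10-fold limit through the disruptants. Its change of balance is likewise given as a description. On DF126452.1, 188 bp apart at 1245802 and 1245990, the strong minus side fell by 1.12 (SE 0.21, edgeR adjusted p = 0.0143) and the plus side had a log2 fold change of 0.65 (SE 0.23, edgeR adjusted p = 0.12).

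Pairs with a called side were found on 25 scaffolds, of the 56 that held pairs. Over all pairs, 6.01% had a called side. DF126492.1, picked after the values were seen, held 3 pairs, each with a called side, and its share over all clusters is not given here. Its pair 73 bp apart at 138268 and 138341 was called lower on both sides (edgeR adjusted p = 0.0173 and 0.00446), the minus call being lost without control replicate 2 or disruptant replicate 1 or 3. It had 12.2, 13.8 and 15.2 CPM on the minus side in the controls and 6.73, 6.91 and 6.27 CPM in the disruptants, and was named after its values were seen. Its plus side, with a mean of 2.19 CPM in the disruptants, met the minimum of 5 CPM through the controls.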
